A study of Mus musculus with 18 samples.

Results

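Regulated exocytosis and vesicle fusion genes were described across mouse small intestinal crypt cells that had been sorted by the brightness of a reporter. The genes were chosen by their symbols: synaptotagmins, synaptotagmin-like proteins, syntaxins and their binding proteins, VAMPs, SNAP proteins, complexins, Unc13, Rims and Cadps priming factors, Rab3 and Rab27 GTPases, Sv2 proteins and synapsins. The rule found 79 of the 19938 genes that the array names singly. It picked genes by symbol alone, though the families were chosen with earlier results of these data known. For a gene with several probe sets, the one with the highest mean was used. RNA came from C57Bl6/J mice aged 4 months with the genotype FltpZV/+, which carry 1 allele of a fluorescent reporter at Flattop (Cfap126), a gene linked to planar cell polarity. Cells were sorted into 3 gates, called negative, low and high here by their reporter signal, with 2 arrays a gate and RNA pooled from 2 animals on each array. Every gate carried the reporter allele, and no sample without it was used here. The labels do not say whether gates shared animals, so a p-value below reflects how far the 2 arrays within each gate differ, over all gates together, which may be technical. The study's title names planar cell polarity priming of intestinal stem cells towards enteroendocrine and Paneth cells, and the comparisons here ask which parts of the release machinery went with low and with high reporter signal.

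In regulated exocytosis a cell stores its product in vesicles or granules and releases it on a signal, usually a rise in calcium. Rab GTPases and their effectors bring the vesicle to the membrane, and priming factors make it ready. SNARE proteins on the vesicle and on the target membrane then zip together and fuse them, while complexins and synaptotagmins tie that step to calcium. Enteroendocrine cells of the crypt release hormones from dense-core granules much as adrenal chromaffin cells do, whereas Paneth and goblet cells empty large granules from their apical side. Several of the gene families have members known from neurons and endocrine cells beside others known from exocrine and blood cells.

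Values are RMA values on the log2 scale, and a background level of 4.23 was taken from 1207 olfactory, vomeronasal and trace amine receptor genes. Of the 79 genes, 62 (78.5%) had a mean above that level, against 64.7% of all genes, while 46 lay above it on all 6 arrays and 10 on none. The correlation across all genes between the 2 arrays of a gate was 0.981 for the negative, 0.975 for the low and 0.946 for the high gate. A gap above 1 log2 unit between replicate arrays was found for 2 exocytosis genes in negative, 2 in low and 7 in high cells (8.86% of the 79, against 7.18% of all genes). Cfap126 itself gave 5.39 and 4.79 in the negative, 5.16 and 6.13 in the low and 5.15 and 5.0 in the high gate, and it was called in no comparison. Its transcript did not separate the gates, which rest on the sort. Chga, the granule protein chromogranin A of enteroendocrine cells, gave 6.03 and 6.25 in the negative, 12.26 and 12.85 in the low and 8.20 and 7.17 in the high gate. Lyz1, the lysozyme of Paneth cells, gave 11.57 and 11.08 in the negative, 13.22 and 13.21 in the low and 13.33 and 13.13 in the high gate.

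The low gate held most of the calls. In low against negative cells 13 of the 79 genes (16.5%) rose, where 3.42% of all genes did: Cadps, Rab3c, Rab3b, Snap25, Cplx1, Cplx2, Sv2c, Stxbp5l, Syt7, Syt11, Syt13, Rims2 and Syn2. In limma's test with Benjamini-Hochberg adjustment over all genes none of the 79 was called lower, where 2.54% of all genes were, and 1 (Unc13a) was lower at an unadjusted p under 0.05. For this and later counts at an unadjusted p, the share of all genes was not counted, so they show neither an excess nor a lack. The median change of the 79 genes was 0.24 on the log2 scale, beside -0.03 over all genes. Of the 13 genes, all but Syn2 were also higher in the low than in the high gate, so that 12 (15.2%) exceeded both other gates, against 2.15% of all genes. These comparisons share the low arrays. In high against negative cells 3 genes rose (3.80%, against 1.36% of all genes), Sytl2, Sytl5 and Stx17, and 1 fell (1.27%, against 3.35%), Stx12. In high against low cells 16 genes fell (20.3%, against 3.89% of all genes) and 1 rose (1.27%, against 1.01%), Unc13a. The 16 were the 12 genes named before and Stx12, Snap29, Stxbp5 and Sytl3. Without negative replicate 1 or negative replicate 2 the genes called higher in the low gate numbered 7 and 8 in place of 13. In bulk samples such as these, fewer cells of a type and less RNA per cell cannot be told apart.

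**Figure D1:**
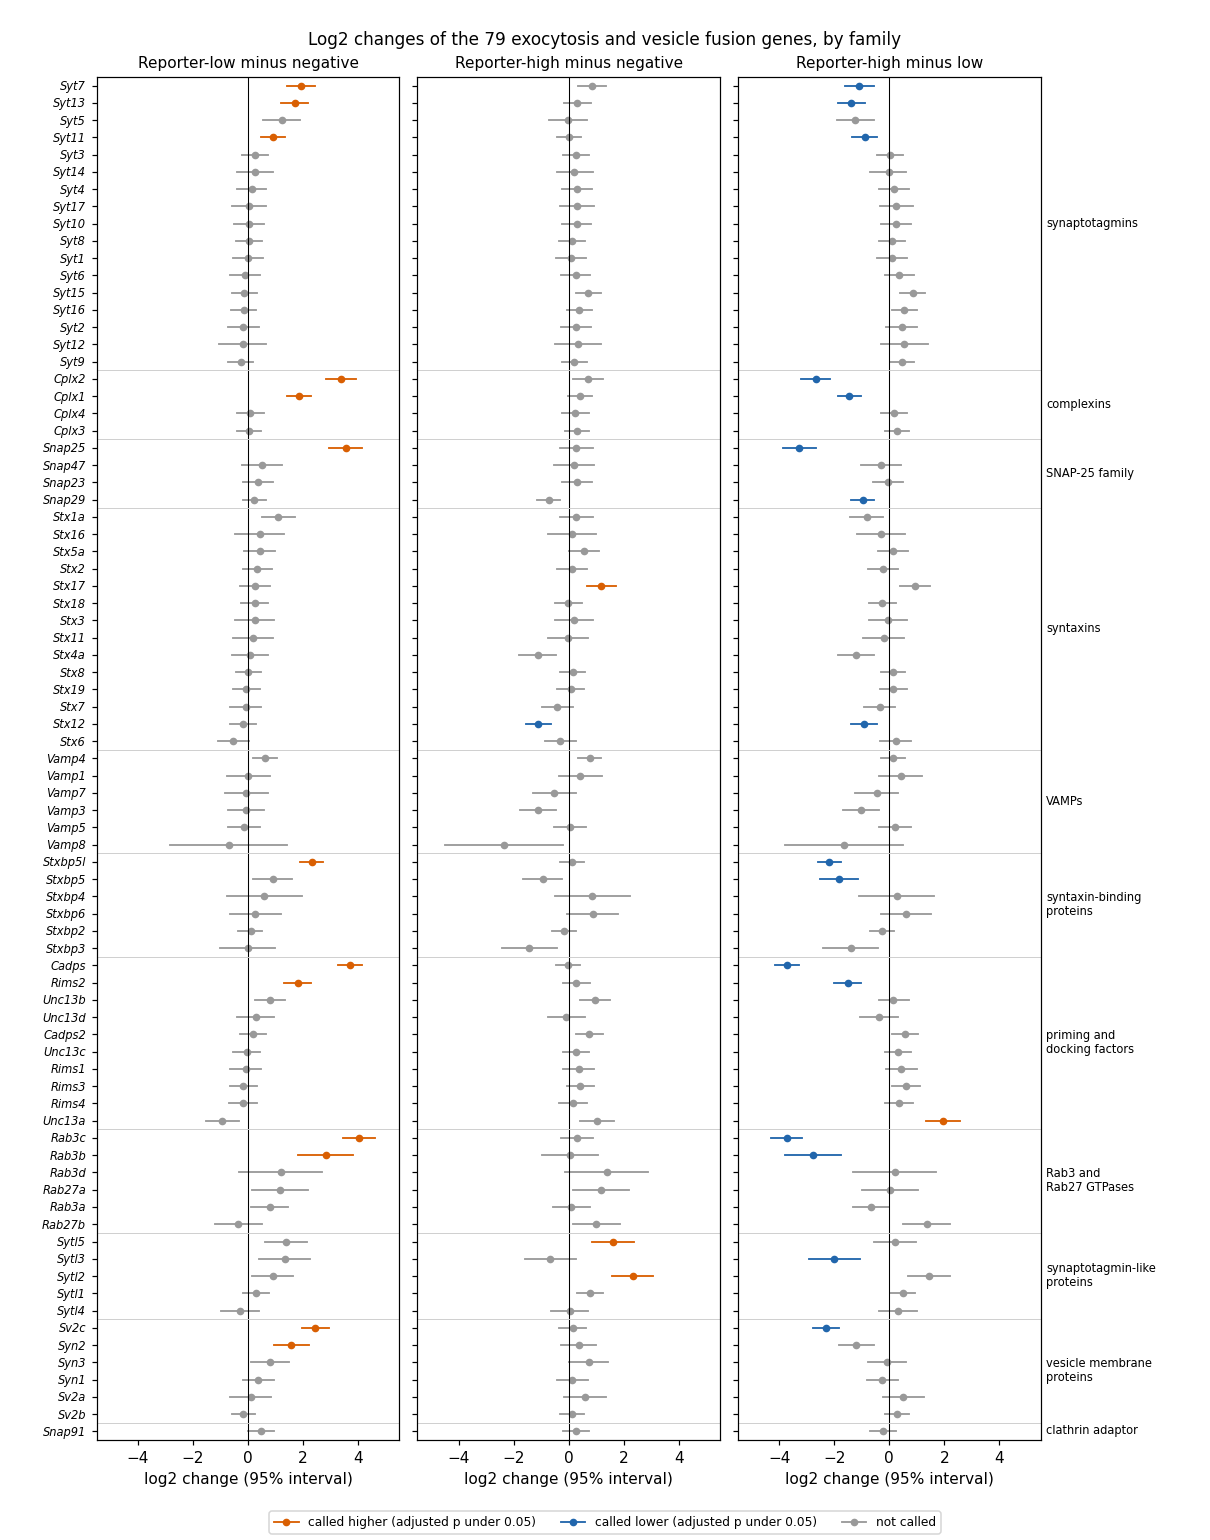
Log2 changes of all 79 genes with 95% intervals from limma, by family, for low minus negative, high minus negative and high minus low. Orange points are called higher and blue points called lower, and the 13 called in low minus negative lie in 7 of the 11 families drawn, with syntaxins, VAMPs, synaptotagmin-like proteins and the clathrin adaptor holding none.

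Among the SNARE proteins Snap25 alone was called between low and negative cells. Snap25, the target-membrane SNARE of neurons and endocrine cells, gave 3.94 and 4.22 in the negative, 7.47 and 7.80 in the low and 4.09 and 4.63 in the high gate. Both low arrays stood far above the rest, and neither negative array passed background. Snap25 rose by at least 3.40 on the log2 scale, or at least 10.6-fold (adjusted p = 0.00109), and it fell by 3.27 ± 0.25 (SE) from low to high cells (adjusted p = 0.00138). Here and below, "at least" sets the brighter gate's mean against the background level and leaves out the spread of the arrays. The adjusted p tests the measured difference, for Snap25 3.55 with a 95% interval from 2.94 to 4.15. Snap23, the broadly used counterpart, gave 8.31 and 8.74 in the negative, 8.99 and 8.75 in the low and 8.99 and 8.66 in the high gate. For Snap23 the low minus negative difference was 0.35 with a 95% interval from -0.20 to 0.91, and it was not called (adjusted p = 0.548). In limma's test 0 of 14 syntaxins and 0 of 6 VAMPs were called between low and negative cells, with 1 of each at an unadjusted p under 0.05. Stx1a, the syntaxin that pairs with Snap25 in neurons, gave 4.58 and 5.18, 5.99 and 5.95, and 4.97 and 5.32 in the negative, low and high gates. Its low arrays lay above all others, by 1.09 ± 0.25 over the negative gate, and missed the threshold (adjusted p = 0.0564). The calls of Snap25 in both comparisons held without each array in turn.

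Complexins bind the assembled SNARE complex, and 2 of 4 rose in the low gate, Cplx2 and Cplx1, while Cplx3 and Cplx4 were above background on no array. Cplx2 gave 4.21 and 4.04 in the negative, 7.77 and 7.24 in the low and 4.86 and 4.80 in the high gate, with the high arrays between the others. It rose by at least 3.28, or at least 9.72-fold, in low cells (adjusted p = 0.000877) and fell by 2.68 ± 0.23 from low to high cells (adjusted p = 0.00182). Cplx1 gave 4.32 and 4.24, 6.05 and 6.22, and 4.62 and 4.75 in the negative, low and high gates. It rose by 1.85 ± 0.18, or 3.61-fold (adjusted p = 0.00340), and fell by 1.45 ± 0.18 from low to high cells (adjusted p = 0.00772, or 0.0615 without low replicate 2). Stxbp5l, a tomosyn that binds SNAREs and restrains their assembly, gave 3.63 and 3.49, 5.93 and 5.82, and 3.76 and 3.63. Only the low arrays of Stxbp5l passed background, and it rose by at least 1.65, or at least 3.14-fold (adjusted p = 0.00158), with the same bound against the high gate (adjusted p = 0.00169). Of the syntaxin-binding proteins, 1 of 6 was called between low and negative cells. Stxbp2, which serves exocytosis in epithelial and blood cells, kept values of 8.12 to 8.50 on all 6 arrays, and its low minus negative difference was 0.09 with a 95% interval from -0.35 to 0.52.

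Among the synaptotagmins, the calcium sensors and their relatives, 3 of 17 rose in the low gate and the sensors best known from fast synapses were not called. Syt7, a calcium sensor of slow and granule exocytosis, gave 5.26 and 5.35 in the negative, 7.47 and 6.99 in the low and 6.14 and 6.14 in the high gate. The 3 gates did not overlap, and the high gate lay between the others. Syt7 rose by 1.92 ± 0.22, or 3.78-fold, in low cells (adjusted p = 0.00535) and fell by 1.09 ± 0.22 from low to high cells (adjusted p = 0.0407). Syt13, a relative whose calcium-binding residues are missing, gave 5.54 and 5.91, 7.46 and 7.38, and 5.94 and 6.13 in the negative, low and high gates. It rose by 1.70 ± 0.20, or 3.24-fold (adjusted p = 0.00646), and fell by 1.39 ± 0.20 from low to high cells (adjusted p = 0.0141). Syt11, also without calcium binding, was just above background in the low gate only, at 4.43 and 4.39, beside 3.40 and 3.61 in the negative and 3.45 and 3.58 in the high gate. Its change was at least 0.19 (adjusted p = 0.0364 against negative and 0.0440 against high cells). Syt5, a sensor found on dense-core vesicles, gave 4.76 and 4.85, 5.71 and 6.34, and 4.51 and 5.06, and its difference of 1.22 ± 0.29 was not called (adjusted p = 0.0579). Syt1 and Syt9 were above background on no array, and Syt2 gave 4.36 and 4.43, 4.13 and 4.30, and 4.38 and 4.94.

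Those synaptotagmin calls were not kept when some arrays were left out, which also leaves fewer degrees of freedom. Without either negative array the high minus low differences stayed at -1.09 for Syt7 and -0.9 for Syt11. Between low and negative cells leaving out negative replicate 1 gave an adjusted p of 0.0670 for Syt7 and 0.0744 for Syt13, and leaving out negative replicate 2 gave 0.0547 for Syt7. Syt11 had 0.240 and 0.149 when these were left out and 0.165 without either low array. Between high and low cells Syt7 and Syt11 lost the call whichever of the 6 arrays was left out, Syt7 with an adjusted p from 0.0592 to 0.196 and Syt11 from 0.0595 to 0.200, and Syt13 lost it without low replicate 1 (0.0931) or low replicate 2 (0.0781).

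Of 10 priming and docking factors, Cadps and Rims2 rose in the low gate. Cadps, the protein CAPS that primes dense-core granules, gave 3.78 and 3.93 in the negative, 7.51 and 7.61 in the low and 3.75 and 3.91 in the high gate. The negative and high arrays were alike and all below background. Cadps rose by at least 3.34, or at least 10.1-fold, with an adjusted p of 0.000387 against negative and 0.000442 against high cells, and kept both calls without each array. Its paralogue Cadps2 gave 4.44 and 4.05, 4.37 and 4.46, and 4.99 and 5.01 in the negative, low and high gates. There the high gate was the highest, by 0.75 over the negative gate, without a call (adjusted p = 0.0900). Rims2, a Rab3 effector that organises release sites, gave 4.05 and 4.21, 6.13 and 5.73, and 4.38 and 4.44. It rose by at least 1.70, or at least 3.26-fold (adjusted p = 0.00568, and 0.0712 or 0.0538 without negative replicate 1 or 2). From low to high cells Rims2 fell by 1.52 ± 0.21 (adjusted p = 0.0105, or 0.0697 without low replicate 1). Unc13b, a priming factor of endocrine and other secretory cells, gave 5.42 and 5.30, 5.97 and 6.33, and 6.51 and 6.09, above the negative gate in both others with no call (adjusted p = 0.108 and 0.0704). Unc13d, which primes granules in blood cells, gave 4.45 and 5.14, 5.26 and 4.88, and 4.83 and 4.56, with low and high ranges that both overlapped the negative gate.

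The Rab GTPases divided by member. Rab3c, a Rab3 of neurons and endocrine cells, gave 3.47 and 3.07 in the negative, 7.09 and 7.53 in the low and 3.69 and 3.45 in the high gate. It rose by at least 3.09, or at least 8.50-fold, with an adjusted p of 0.000466 against negative and 0.000720 against high cells, and kept both calls without each array. Rab3b gave 3.51 and 3.33, 5.51 and 6.95, and 3.45 and 3.48, with low arrays that lay far apart. Its change was at least 2.01, or at least 4.02-fold (adjusted p = 0.0149 against negative and 0.0171 against high cells). The first call of Rab3b was lost without negative replicate 1 (0.104) or negative replicate 2 (0.111), and the other without either negative array (0.0508) or high replicate 2 (0.0645). Rab3d, the Rab3 of exocrine granules, gave 6.56 and 6.42 in the negative, 7.64 and 7.72 in the low and 9.01 and 6.75 in the high gate. Both low arrays lay above both negative arrays, and the high arrays lay apart on either side of them. The low minus negative difference of Rab3d, 1.19, was not called with the spread of all gates (adjusted p = 0.413) and was called without high replicate 1 or high replicate 2 (0.0137 each). Rab27a, which docks lysosome-related and secretory granules, gave 5.51 and 5.15, 6.85 and 6.16, and 7.13 and 5.91, and Rab27b gave 5.77 and 4.81, 4.68 and 5.18, and 6.06 and 6.52. Neither was called in any comparison. Rab3a gave 3.75 and 4.31, 4.53 and 5.08, and 4.03 and 4.24, highest in the low gate with no call (adjusted p = 0.188).

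Of 6 vesicle membrane proteins, Sv2c and Syn2 rose. Sv2c, a glycoprotein of synaptic and endocrine vesicles, gave 3.87 and 3.77 in the negative, 6.46 and 6.07 in the low and 3.95 and 3.98 in the high gate. It rose by at least 2.04, or at least 4.11-fold, with an adjusted p of 0.00195 against negative and 0.00206 against high cells, and kept both calls without each array. Sv2a gave 4.12 to 5.38 over the 6 arrays with no call, and Sv2b was above background on none. Syn2, a synapsin that tethers vesicles to the cytoskeleton, gave 4.35 and 4.35, 6.15 and 5.69, and 5.02 and 4.42 in the negative, low and high gates. It rose by 1.57 ± 0.27, or 2.97-fold, in low cells (adjusted p = 0.0211). That call was lost without each negative array (0.143 and 0.137) and each low array (0.108 and 0.0587), and under quantile normalization (0.0527). From low to high cells Syn2 differed by -1.20 (adjusted p = 0.0564), or by -1.50 without high replicate 1, which leaves 1 high array.

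**Figure D2:**
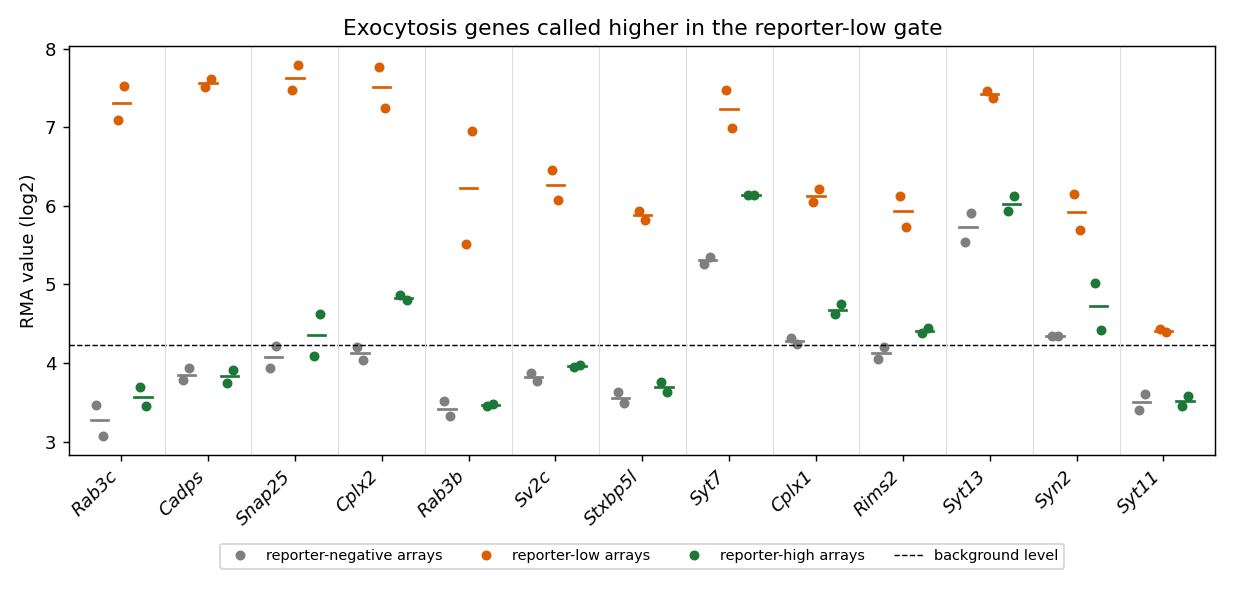
RMA values on the log2 scale of the 13 genes called higher in low than in negative cells, with a point for each array, a bar for the mean of a gate and a dashed line at the background level of 4.23. In each gene both low arrays lie above all negative and high arrays, and both high arrays lie above both negative arrays in Cplx2, Cplx1, Syt7, Syt13, Rims2, Sv2c and Syn2. High and negative arrays of Sv2c are all below background. In either direction, high and negative arrays do not overlap in 41 of the 79 genes (51.9%), while limma called 4 of the 79 between these gates. The share over all genes was not counted, so the 41 cannot be read as a trait of these genes.

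The start regions of these genes were read because the genes moved together. RefSeq's table for GRCm38.p6, with 250 bases before and 50 after each start, held 63 of the 79 genes and 9 of the 13. Both parts of the element bound by Rest, a repressor of neuronal genes, were searched on both strands, together with sites bound by endocrine regulators. The left part CAGCACC stood in 8 of 63 genes (12.7%) and in 1 of 9, against 8.10% of 27025 genes, and the right part GGACAGC in 4 of 63 (6.30%) and 0 of 9, against 7.60%. The cyclic AMP response element TGACGTCA stood in 2 of 63 (3.20%) and 0 of 9, against 2.00%. The E-box CAGATG, of the kind bound by Neurod1, stood in 7 of 63 (11.1%) and 2 of 9 (22.2%), against 19.2%. The site GTTGCC, of the kind bound by Rfx factors, stood in 8 of 63 (12.7%) and 0 of 9, against 14.1%. The shares over the 63 genes lay above that of all genes for CAGCACC and TGACGTCA and below it for the others, and no test of them was made. The 250 bases before the start are printed 5' to 3' on the gene's strand for Cadps (chr14:12823080-12823329, minus strand) and Rab3c (chr13:110280207-110280456, minus strand), which kept both calls without each array and hold none of the letters in these bases. They are followed by Sv2c (chr13:96132578-96132827, minus strand), in which capitals mark CAGCACC, starting 101 bases before the start.
Cadps: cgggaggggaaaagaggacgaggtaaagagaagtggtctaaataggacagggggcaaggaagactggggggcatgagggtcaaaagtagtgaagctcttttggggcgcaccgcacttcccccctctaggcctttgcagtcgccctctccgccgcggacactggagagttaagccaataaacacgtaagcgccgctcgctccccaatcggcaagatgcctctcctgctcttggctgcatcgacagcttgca
Rab3c: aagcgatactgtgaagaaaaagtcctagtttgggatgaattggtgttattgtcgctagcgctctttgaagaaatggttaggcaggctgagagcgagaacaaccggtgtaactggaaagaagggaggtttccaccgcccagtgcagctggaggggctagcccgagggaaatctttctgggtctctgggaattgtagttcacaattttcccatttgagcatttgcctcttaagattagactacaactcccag
Sv2c: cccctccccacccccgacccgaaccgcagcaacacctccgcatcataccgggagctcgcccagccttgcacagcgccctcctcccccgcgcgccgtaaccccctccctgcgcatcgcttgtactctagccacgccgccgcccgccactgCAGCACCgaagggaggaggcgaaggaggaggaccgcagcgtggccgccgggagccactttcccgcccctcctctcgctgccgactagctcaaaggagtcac

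Of 5 synaptotagmin-like proteins, 2 rose in high against negative cells. Sytl2, a Rab27 effector that docks granules and transport vesicles, gave 6.49 and 6.01 in the negative, 6.76 and 7.51 in the low and 8.79 and 8.35 in the high gate. The gates did not overlap and the high arrays were the highest. Sytl2 rose by 2.32 ± 0.32, or 5.0-fold, over the negative gate (adjusted p = 0.0175), and was higher than in low cells by 1.43 without a call (adjusted p = 0.0565). Sytl5, another Rab27 effector, gave 4.38 and 4.04, 5.99 and 5.20, and 5.55 and 6.06, so that it lay above the negative gate in both others. It rose by 1.60 ± 0.32 in high cells (adjusted p = 0.0426) and differed by 1.39 in low cells (adjusted p = 0.0547, or 0.0492 without either high array). Its second probe set differed by 0.87 in high cells (adjusted p = 0.233 over probe sets). Sytl1, an effector known from exocrine glands, gave 4.85 and 4.80, 4.95 and 5.28, and 5.67 and 5.52, with gate means in the order negative, low, high and a difference of 0.77 between high and negative cells that was not called (adjusted p = 0.0836). Sytl4, the granuphilin of insulin granules, gave 4.16 and 4.62, 4.11 and 4.07, and 4.06 and 4.77, close to background throughout. Sytl3 went the other way, with 4.92 and 6.10, 7.0 and 6.68, and 4.63 and 5.05. It fell by 2.00 ± 0.39 from low to high cells (adjusted p = 0.0379), a call lost without low replicate 1 (0.181), low replicate 2 (0.124), high replicate 1 (0.0759) or high replicate 2 (0.0756).

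In high against negative cells 2 of 14 syntaxins were called, 1 in each direction. Stx17, which fuses autophagosomes with lysosomes, gave 6.90 and 6.80 in the negative, 6.85 and 7.36 in the low and 7.94 and 8.13 in the high gate, and rose by 1.19 ± 0.23 (adjusted p = 0.0381). Stx12, a SNARE of recycling endosomes, gave 7.73 and 8.01, 7.67 and 7.72, and 6.67 and 6.87. It fell by 1.10 ± 0.19 from negative (adjusted p = 0.0310) and by 0.93 from low cells (adjusted p = 0.0480). Snap29, a partner of Stx17, gave 6.70 and 6.79, 6.96 and 6.99, and 6.07 and 5.95, so that partners lay on opposite sides of the negative gate in high cells. Snap29 fell by 0.96 from low to high cells (adjusted p = 0.0312), and its difference of -0.73 from negative cells was not called (adjusted p = 0.0691). The tomosyn gene Stxbp5, unlike Stxbp5l, was well above background in every gate, at 7.62 and 7.05, 8.11 and 8.34, and 6.70 and 6.08. It fell by 1.84 ± 0.29 from low to high cells (adjusted p = 0.0191).

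None of the 4 calls between high and negative cells held in every setting. Without negative replicate 1 all 4 were lost with an adjusted p from 0.108 to 0.198, and without negative replicate 2 with 0.140 to 0.236. Stx12 was also lost without either low array (0.0640), and Stx17 (0.0906) and Sytl5 (0.116) without high replicate 2. Between high and low cells Snap29 lost its call without either negative array (0.0883), low replicate 1 (0.148), low replicate 2 (0.160) or high replicate 2 (0.0662), and Stx12 whichever of the 6 arrays was left out (0.0658 to 0.208). Stxbp5 lost its call without low replicate 1 (0.0809), low replicate 2 (0.111) or high replicate 2 (0.0572). With array weights, which counted the high arrays less, Sytl2 alone kept its call against negative cells.

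Among the exocrine and epithelial release genes below, Vamp8, Rab3d and Stxbp3 had high arrays more than 1 log2 unit apart. Such gaps in the high gate were found for 8.86% of the exocytosis genes and 7.18% of all genes. They thus cannot be read as a trait of these genes. Vamp8, the vesicle SNARE of exocrine, mast cell and platelet granules, gave 10.08 and 10.11 in the negative, 9.26 and 9.53 in the low and 9.37 and 6.12 in the high gate. High replicate 2 stood alone, far below the other 5 arrays. The high minus negative difference of Vamp8, -2.35 ± 0.90, was not called (adjusted p = 0.189). Without high replicate 1, which leaves 1 high array, it was -3.98, and against low cells -3.28. Rab3d was highest on high replicate 1. With that array as the only high array, Rab3d exceeded negative cells by 2.51 and low cells by 1.32. Vamp3, a SNARE of recycling vesicles, gave 8.10 and 7.79, 7.77 and 7.98, and 6.48 and 7.19, below both other gates in the high arrays. Vamp3 differed by -1.11 from negative cells without a call (adjusted p = 0.0762). With high replicate 1 as the only high array it differed by -1.47 from negative and by -1.40 from low cells. Stx4a, the plasma membrane syntaxin of the basolateral side, gave 8.58 and 8.55, 8.65 and 8.62, and 7.84 and 7.02. Stx4a differed by -1.13 from negative cells without a call (adjusted p = 0.0759). With high replicate 2 as the only high array it differed by -1.54 from negative and by -1.62 from low cells. Stxbp3, a partner of Stx4a, gave 7.26 and 7.0, 6.94 and 7.28, and 6.37 and 5.02 with no call. Stx3, the apical syntaxin of epithelial cells, gave 6.34 to 7.08 over the 6 arrays, and its high minus negative difference was 0.19 with no call.

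**Figure D3:**
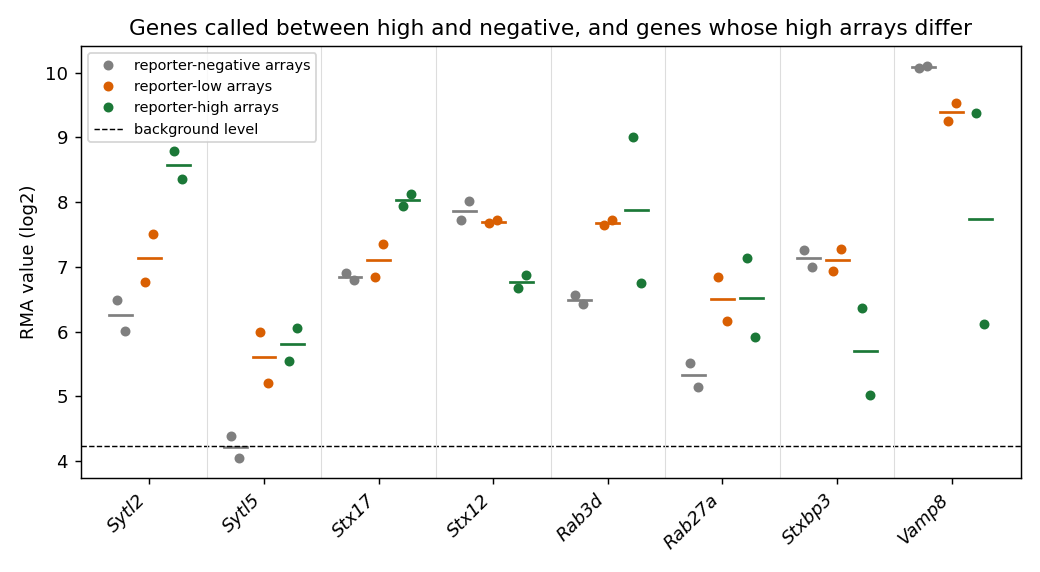
RMA values on the log2 scale of the 4 genes called between high and negative cells (Sytl2, Sytl5, Stx17 and Stx12) and of Rab3d, Rab27a, Stxbp3 and Vamp8, whose high arrays differ by more than 1 log2 unit. Points are arrays, bars are means of a gate and the dashed line is the background level, and the high arrays of Vamp8 lie at 9.37 and 6.12.

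Unc13a, a priming factor best known from neurons, was the single gene higher in high than in low cells, and its probe sets disagreed. Probe set 10579548, the brightest and the one used, gave 7.59 and 7.78 in the negative, 6.91 and 6.60 in the low and 8.40 and 9.01 in the high gate. On it Unc13a rose by 1.95 ± 0.26, or 3.86-fold, from low to high cells (adjusted p = 0.00953, or 0.0656 without low replicate 2). It differed by -0.93 between low and negative cells (adjusted p = 0.0949, or 0.0404 without either high array). Between high and negative cells it differed by 1.02 (adjusted p = 0.0797), or by 1.32 without high replicate 1, which leaves 1 high array. Probe set 10579550 gave 4.42 and 3.96, 5.01 and 5.35, and 4.39 and 4.86, and probe set 10579554 gave 4.69 and 4.47, 5.47 and 5.61, and 5.07 and 4.89. Both of these were highest in the low gate, and 10579554 rose there by 0.96 ± 0.19 (adjusted p = 0.0376 over probe sets). With the mean over probe sets the high minus low difference of Unc13a was 0.28 (adjusted p = 0.406). The order of the gates for this gene thus depended on the probe set, and which transcripts each reads was not tested.

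**Figure D4:**
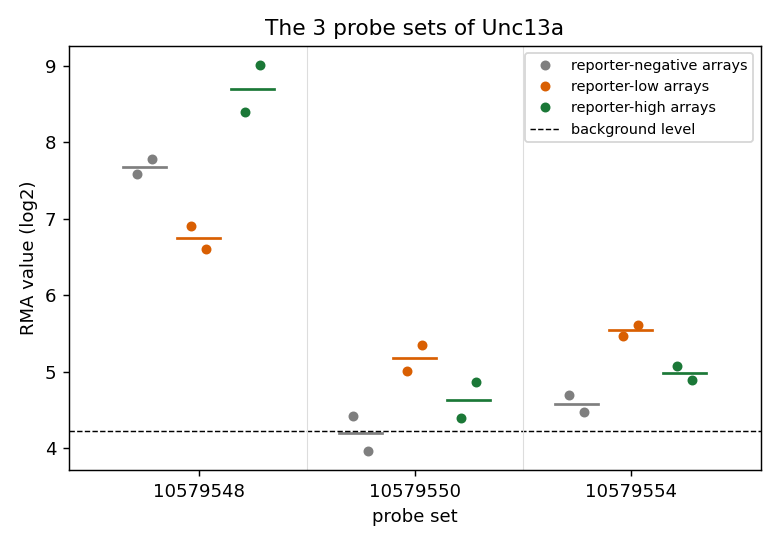
RMA values on the log2 scale of the 3 probe sets of Unc13a, with a point for each array, a bar for the mean of a gate and a dashed line at background. Probe set 10579548 is lowest in the low gate, and the other 2 are highest there.

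Genes that work beside these families were read from a list of 74, chosen with earlier results of these data known, of which 72 were measured. In low against negative cells 12 of the 72 rose and 0 were called lower by limma, where 3.42% and 2.54% of all genes were. At an unadjusted p under 0.05, 2 were lower. In high against negative cells 4 rose and 2 fell, where 1.36% and 3.35% of all genes did. In high against low cells 3 rose and 14 fell, where 1.01% and 3.89% of all genes did. Rimbp2, which links release sites to calcium channels, gave 4.55 and 4.33 in the negative, 7.99 and 7.80 in the low and 4.76 and 4.70 in the high gate, and rose by 3.46 ± 0.19 (adjusted p = 0.000455). Ptprn2, the dense-core granule protein phogrin, gave 5.84 and 6.23, 9.88 and 9.84, and 7.96 and 8.13. It rose by 3.83 ± 0.21 in low (adjusted p = 0.000455) and by 2.01 ± 0.21 in high cells (adjusted p = 0.00976), in the order negative, high, low. Esyt1, a tether between membranes, rose by 2.66 ± 0.20 (adjusted p = 0.00121), Pclo, a release-site scaffold, by at least 2.18 (adjusted p = 0.00496), and Syp, the vesicle protein synaptophysin, by 3.49 ± 0.39 (adjusted p = 0.00544). The vesicular monoamine transporters Slc18a1 and Slc18a2 rose by 4.05 ± 0.44 (adjusted p = 0.00474) and 3.15 ± 0.46 (adjusted p = 0.0123). Between low and negative cells 3 groups of the list held no call by limma. The 4 genes that take SNARE complexes apart had 0 calls, also in high cells, and over negative cells 2 were higher in low and 1 in high cells at an unadjusted p under 0.05. The 9 exocyst genes, which tether vesicles, had 0 calls and 2 higher at that unadjusted p, and the 10 SNAREs of the Golgi and endosome had 0 of either. From low to high cells Exoc2 fell by 1.22 (adjusted p = 0.0347) and Exoc6 by 1.23 (adjusted p = 0.0123). The Golgi SNARE Gosr2 fell by 1.08 from negative to high cells (adjusted p = 0.0493). Exoc2 and Gosr2 lost these calls whichever of the 6 arrays was left out, and Exoc6 without either low array. In high cells Mlph, the Rab27 effector melanophilin, gave 6.82 and 6.70, 6.18 and 6.75, and 8.70 and 8.68. It rose by 1.93 ± 0.23 over negative (adjusted p = 0.0141) and by 2.23 ± 0.23 over low cells (adjusted p = 0.00394), and Myof, the membrane repair protein myoferlin, rose by 2.11 ± 0.26 over negative cells (adjusted p = 0.0155). The count of 12 in low cells became 3 and 4 without negative replicate 1 and 2 and 7 without low replicate 2, and high against negative cells had 0 calls without either negative array. The 14 falls from low to high cells became 9 without either negative array, 8 and 5 without low replicate 1 and 2, and 7 without high replicate 2. The 3 rises there became 1 without either low array, and the 2 falls from negative to high cells became 0 without either low array or high replicate 2.

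Markers of several cell types moved with these genes. Their lists were chosen with earlier results of these data known, so the counts cannot serve as support for what the gates hold. All 17 enteroendocrine markers rose in the low gate and fell from low to high cells (15 without either low array), and their summed linear signal was 823 to 1210 in the negative, 56950 to 62740 in the low and 2473 to 3408 in the high gate. Of 11 Paneth markers, 11 rose in low and 10 in high cells, with sums of 5764 to 7489, 36260 to 40950 and 51580 to 60710. Leaving out negative replicate 1 and 2 gave 8 and 7 in low and 6 and 5 in high cells, and leaving out low replicate 2 gave 7 in low cells. Of 8 T cell markers, 7 rose in the low gate, 8 fell from low to high cells and 8 fell from negative to high cells, with sums of 4082 to 4607, 12550 on both low arrays, and 1210 to 1320 in the high gate. The 7 T cell calls became 0 and 1 without negative replicate 1 and 2 and 3 without either low array, and the fall from negative to high cells had 0 calls without either negative array, while all 8 held between high and low cells. Of the myeloid list Tyrobp, Fcer1g and Lyz2, which the Paneth list also counts, rose in low cells. Lyz2 differed by 1.31 between high and negative cells and by -0.26 between high and low cells, with no call in either. Tyrobp and Fcer1g fell from low to high cells, by 3.77 and 3.74, and from negative to high cells, by 1.46 and 1.47. The defining marker Adgre1 was above background on no array. The falls from low to high cells held without each array, while both from negative to high cells were lost without either negative array, Tyrobp also without either low array and Fcer1g without either high array. The 3 calls in low cells became 0 and 1 without negative replicate 1 and 2, and Lyz2 was not called without low replicate 2 (0.150). Of the mast cell list Mcpt1 and Mcpt2 fell and Kit rose in low and in high cells, and Cpa3, Cma1 and Fcer1a were above background on no array. Those mast cell calls were lost without negative replicate 1 or 2, other than Kit in low cells without negative replicate 1. Neurons use many of the same release genes, and of 12 enteric neuron genes measured Ret rose by 2.56 ± 0.19 (adjusted p = 0.00128) and Th by 1.98 ± 0.24 (adjusted p = 0.00687) in low cells. Th lost that call without negative replicate 2 (0.0679). In high over negative cells Ret rose by 0.92 (adjusted p = 0.0462), a call lost without either negative array, either low array or high replicate 2. Of the other neuron genes, Elavl4, Chat, Vip and Dbh were above background on no array, Hand2 and Snap91 on 6, Prph on 5, Uchl1 on 4 and Tubb3 and Nos1 on 3. The low minus negative differences of Uchl1 and Tubb3 were 0.67 (adjusted p = 0.327) and 0.99 (adjusted p = 0.195), and the neuron list summed to 208 to 224, 393 to 406 and 268 to 287 in the negative, low and high gates. Of 8 enterocyte markers Lct fell in low and high cells and Sis and Slc5a1 in high cells, with sums of 9527 to 13970, 5400 to 10050 and 4070 to 6022 in the negative, low and high gates, and these calls were all lost without either negative array, those in high cells also without high replicate 2 and Lct in low cells also without low replicate 2. Sis was lost without either low array too, and Slc5a1 without high replicate 1. Of 5 stem cell markers Lgr5 rose in high cells over negative (adjusted p = 0.0447) and low cells (adjusted p = 0.0134), the first lost without each array other than high replicate 1 and the other without either low array. Slc12a2 of that list fell in low cells and rose from low to high cells, and both calls were lost without either negative or low array, the rise also without high replicate 1. Of 7 goblet cell markers Clca1 fell in low and in high cells, both lost without either negative array and the latter also without either low array. Of 4 enteric glia markers, 0 were called by limma, and 1 was higher in high than in low cells at an unadjusted p under 0.05. The part of these cell type markers in the changes of the exocytosis genes was not tested.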

How the data were processed

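Gene expression was measured on Affymetrix arrays. The authors' deposited values were made by RMA in Affymetrix Expression Console 1.3.0.187 according to the submitters' processing notes, and are log2 values by their range. RNA was extracted with a DNase step and amplified by a whole-transcript kit, per the labels' protocols. Of 18 samples, the 12 of a lineage-tracing line were not analysed here. Of 35556 probe sets, 21789 had a single gene symbol in the platform annotation, 1621 had several and were left out, and 12146 were unlisted. For genes with several probe sets the one with the highest mean was used.

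Genes were tested in limma 3.58.1 (lmFit and eBayes, R 4.3.3) with all 6 arrays in a single fit of gate means with 3 residual degrees of freedom, no filter, two-sided tests and Benjamini-Hochberg adjustment over 19938 genes. The background level, 4.23, is the 95th percentile of mean values over 1207 chemoreceptor genes. Where neither array of the dimmer gate passes it, the change is given as at least the brighter gate's mean minus that level. That figure leaves out the spread of the arrays, so the 95% interval of the measured difference can reach below it. Companion and marker lists are given by counts, with no set test. The 2 arrays a gate limit the precision, and RMA compresses changes near background. The limma fit was tested on simulated data for low against negative cells.

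Named genes were all called genes, 16 members known from non-neuronal exocytosis where measured, and family partners of called genes. Genes named for their replicate gaps or for a call gained without an array are exceptions to this rule, picked once their values had been seen. The members and lists were chosen with earlier results of these data known. Vamp2 shares its probe set with another gene and is not analysed here. The alternatives changed the threshold, scaling, array weights, probe set rule, prior, filter on dim genes or arrays fitted, added a replicate block, or left out an array. Python 3.11.15, with pandas 2.3.3, numpy 2.4.6 and matplotlib 3.10.9, wrote the tables and figures.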

Additional observations from a re-analysis of the deposited data

How the results depend on the processing

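The count of 13 exocytosis genes called higher in low than in negative cells stayed within 1.5 times under each alternative other than leaving out an array, which gave 7 to 17. The count called lower there, 0, became 1 with the 4 arrays of the gates compared, with array weights and at an adjusted p under 0.10, and ranged from 0 to 1 on leaving out an array. In high against negative cells the 3 genes called higher became 1 with array weights, 10 at an adjusted p under 0.10 and 0 at 0.01, and 0 to 5 on leaving out an array. The 1 called lower became 0 with a trended robust prior, with the 4 arrays of these gates, with quantile normalization, with array weights and at 0.01, became 2 with centred arrays and 4 at 0.10, and ranged from 0 to 4 on leaving out an array. In high against low cells the 1 called higher became 2 with the trended prior or the filter on dim genes, 0 with the mean over probe sets, 3 with quantile normalization and 5 at 0.10, and 0 to 2 on leaving out an array. The 16 called lower became 7 at 0.01 and 8 to 17 on leaving out an array. The 12 genes above both other gates became 7 at 0.01 and 7 to 12 on leaving out an array. Besides thresholds, 7 of 13 calls in low against negative, 0 of 4 in high against negative and 6 of 17 in high against low cells held in all 14 settings. A change of sign was found for Rab3d between high and low cells, 0.19 with all arrays, -0.93 without high replicate 1 (adjusted p = 0.0455) and 1.32 without high replicate 2. The cause of these changes was not tested, other than that fewer arrays leave fewer degrees of freedom. Where a gate was left with 1 array, that array is assumed to vary like the others.

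The replicate numbers were checked for pairing. Deviations of same-numbered arrays correlated over genes at 0.103 for negative and low, 0.102 for negative and high and 0.079 for low and high. The main fit held no block because the labels do not say that the numbers pair animals. Whether gates shared animals was not tested. With the replicate block, 15 genes were called higher in low than in negative cells, 3 higher and 1 lower in high than in negative cells, and 1 higher and 15 lower in high than in low cells. Depth here is signal over background: 17 of the 79 genes had a mean below it, where changes are compressed.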
